A study of Mus musculus with 6 samples.

Results

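The samples described here are the 6 Cy5-labelled RNA samples, of 12 labelled samples in all, on Agilent mouse genome arrays that each carried both dyes. They were chosen by dye and treatment alone: each holds RNA from back skin of C57/BL mice after treatment with cyclosporin A, taken at day 2, day 4 or day 7, with 2 arrays per day. The ethanol control of the same day was labelled with Cy3 on each array and was not used here. A change over days that treated and control skin share is therefore not separated from one that followed the drug. Age, sex, dose and the number of mice per RNA sample were not given in the labels used here. Biological replicates are what the labels call them, but no label ties one to an animal, so a p-value here reflects only how these samples vary, which may be technical. Days 2 and 4 shared a slide, and day 7 had its own. Every difference that involves day 7 is thus a difference between slides as well, and the 2 cannot be told apart.

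Cyclosporin A suppresses immunity: in complex with a cyclophilin it blocks calcineurin, the phosphatase that activates NFAT transcription factors. Excess hair growth is a known side effect. Hair follicles cycle between rest (telogen) and growth (anagen). In early anagen, cells at the follicle base divide and form the hair matrix. Its descendants build the inner root sheath, a hardened tube that guides the hair, and then the shaft itself, which is packed with hair keratins and cross-linking keratin-associated proteins. Melanocytes of the follicle make pigment during the same phase.

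All values below are log2 Cy5 intensities after background correction and normalisation between arrays, and differences are log2 differences between days (n = 2 arrays per day). An offset of 50 was added to the intensities, which compresses the differences of dim genes. The standard error (SE) and the p-value come from limma, fitted over all 6 arrays and 22036 genes, and genes with an adjusted p (Benjamini-Hochberg) below 0.05 are named as called. The number of arrays limits the precision. Leaving out 1 array, as done below, takes values from the estimate of the spread. A call can then be lost while the difference hardly moves. An array of day 4 enters only the spread, not the difference, when day 7 is compared with day 2. The median raw Cy5 intensity was 160 and 134.5 on the arrays of day 7 and 165 to 187 on the others, and the share of probes well above background was 59.9% to 68.8%, lowest on replicate 1 of day 7. The 2 arrays of a day differed with an SD of 0.337 at day 2, 0.219 at day 4 and 0.484 at day 7. Genes that mark skin were bright on all arrays. Krt14, a keratin of basal epidermal cells, lay between 16.43 and 17.19, and Col1a1, a collagen chain of the dermis, between 16.56 and 17.31.

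Most of the genes that rose most from day 2 to day 7 encode hair structure. Promoters of 6 called hair genes are shown because each holds TATAAA, the letters of a TATA box, before the start. They were chosen after the matches were seen. The sequences are the 100 bases before the annotated start, 5′ to 3′ on the gene's own strand, from RefSeq (GRCm38.p6). Capitals mark TATAAA on that strand.
Krt71 (chr15:101743098-101743197, minus strand): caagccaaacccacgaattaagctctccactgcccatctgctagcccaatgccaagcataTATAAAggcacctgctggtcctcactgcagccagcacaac
Krt25 (chr11:99322952-99323051, minus strand): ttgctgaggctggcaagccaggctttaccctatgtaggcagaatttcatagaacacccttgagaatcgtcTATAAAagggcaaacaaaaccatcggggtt
Krt27 (chr11:99351119-99351218, minus strand): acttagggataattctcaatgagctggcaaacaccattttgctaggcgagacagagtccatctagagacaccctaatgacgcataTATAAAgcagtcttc
Krt34 (chr11:100041555-100041654, minus strand): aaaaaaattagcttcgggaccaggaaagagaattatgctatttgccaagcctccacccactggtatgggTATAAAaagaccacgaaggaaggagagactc
Krtap5-1 (chr7:142297135-142297234, minus strand): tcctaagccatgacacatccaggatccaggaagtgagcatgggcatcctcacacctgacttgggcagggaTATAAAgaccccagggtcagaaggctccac
Prr9 (chr3:92123948-92124047, minus strand): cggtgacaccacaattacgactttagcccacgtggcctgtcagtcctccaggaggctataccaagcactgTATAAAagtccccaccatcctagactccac
The first base of the match lay 40 bases before the start in Krt71, 31 in Krt34, 30 in Krt25, Krtap5-1 and Prr9, and 15 in Krt27.

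Promoters of 3 cell division genes called higher at day 7 are shown for comparison. Capitals mark CCAAT and TTTGAA, letters that recur in promoters of cell cycle genes, in the same 100 bases before the start. Both strands were searched, and every match lay on the gene's strand.
Cdc20 (chr4:118437344-118437443, minus strand): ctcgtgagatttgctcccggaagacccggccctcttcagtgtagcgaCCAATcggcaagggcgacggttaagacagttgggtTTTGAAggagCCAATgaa
Ccnb2 (chr9:70421555-70421654, minus strand): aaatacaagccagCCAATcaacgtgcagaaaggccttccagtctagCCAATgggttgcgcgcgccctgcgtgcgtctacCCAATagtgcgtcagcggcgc
Plk1 (chr7:122159335-122159434, plus strand): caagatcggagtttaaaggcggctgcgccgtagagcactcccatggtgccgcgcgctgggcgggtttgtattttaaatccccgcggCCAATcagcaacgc
Cdc20 and Ccnb2 hold several matches each and Plk1 a single one.

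Shares were counted over windows of 300 bases, from 250 before to 50 after each annotated start, on both strands, and a gene can have several. TATAAA was present in 14 of the 17 windows of genes called higher at day 7 than at day 2 on the lists of hair shaft keratins, keratin-associated proteins and inner root sheath (82.4%). It was in 31 of the 159 windows of all genes called higher (19.5%) and in 9.27% of the 13622 windows of all genes tested. Of the 129 windows of genes called higher on neither the hair nor the mitosis and DNA replication lists, 17 held it (13.2%). Genes called lower had it in 2 of 13 windows (15.4%). Windows of hair list genes that were not called were not counted. On the gene's strand and starting 40 to 20 bases before the start, TATAAA was in 9 of the 17 windows of the called hair genes (52.9%) and in 1.92% of all. In the 13 windows of called mitosis and DNA replication genes TATAAA was present in 0, CCAAT in 10 (76.9%) and TTTGAA in 6 (46.2%). Over all genes tested these shares were 37.5% for CCAAT and 13% for TTTGAA. Other called genes lay above these too, with 49.6% and 23.3% in the 129 windows of the remaining genes called higher. Genes called lower had 53.8% and 30.8% (13 windows), and the called hair genes 35.3% and 29.4%. The E2F letters TTCCCGC or TTGGCGC were in 30.8% of the 13 mitosis and DNA replication windows and 10.5% of all. The Lef/Tcf letters CTTTGAA or CTTTGAT, which overlap TTTGAA, were in 7.69% and 6.58%. These Lef/Tcf letters were in 3 of the 17 windows of called hair genes (17.6%) and 2 of the 13 of genes called lower (15.4%). Over the 53 windows of all mitosis and DNA replication genes tested, called or not, the shares were close to those of the called ones: 69.8% for CCAAT, 43.4% for TTTGAA, 5.66% for TATAAA and 32.1% for the E2F letters. TCACGTG or TCATGTG, the core bound by Mitf, was in 7.69% of the 13 called mitosis and DNA replication windows and 7.65% of all. It was in 5.88% of the windows of called hair genes and 15.4% of those of genes called lower. Related keratin genes share sequence, so their windows are not independent, and a match is a description of the letters only.

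**Figure D1:**
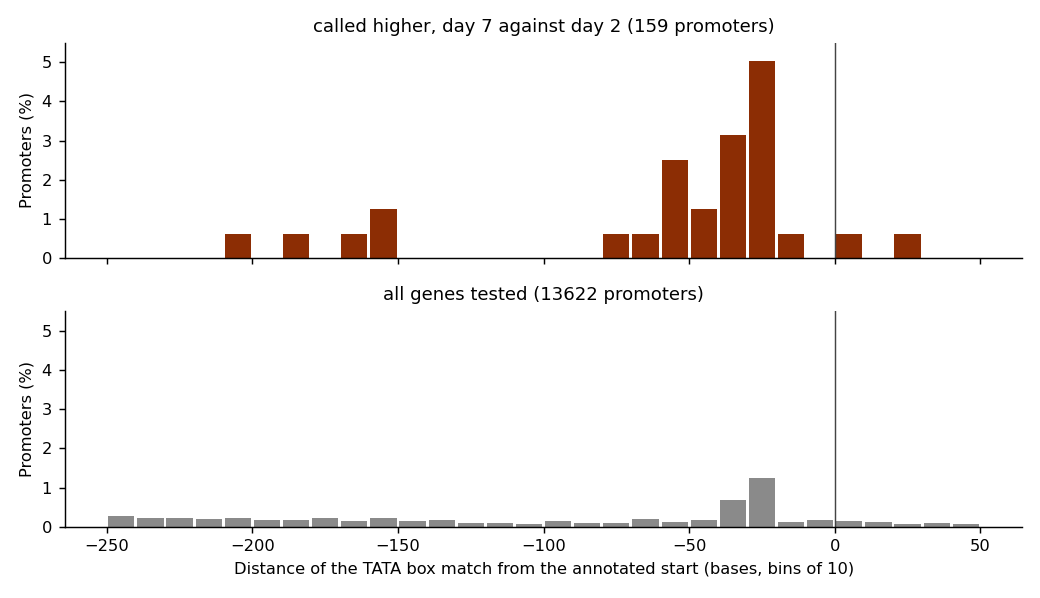
Share of promoter windows (y axis, percent) in which TATAAA on the gene's strand starts at each distance from the annotated start (x axis, bases, bins of 10), for genes called higher at day 7 than at day 2 (upper panel, 159 windows) and for all genes tested (lower panel, 13622 windows). The tallest bar lies just before the start in both panels and is higher in the upper one.

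The comparison of day 7 with day 2 asks which transcripts differed most over the whole period. Inner root sheath keratins led it. Krt71 was measured at 7.15 and 6.86 at day 2, 9.17 and 9.11 at day 4, and 17.37 and 16.91 at day 7. The arrays of the 3 days did not overlap, and day 7 was 1127-fold above day 2 (log2 difference 10.14, SE 0.21, adjusted p = 9.35e-07). Krt25, its partner keratin in the sheath, stood at 6.55 and 6.39, then 8.81 and 8.74, then 15.06 and 15.72. It rose by 8.92 (SE 0.23, adjusted p = 2.06e-06), and at day 2 only 1 of its 2 arrays was well above background. Krt27, another sheath keratin, went from 7.14 and 6.69 through 8.18 and 8.0 to 15.39 and 15.42, a rise of 8.49 (SE 0.20, adjusted p = 1.26e-06). Of 22036 genes tested, 1.15% were called between days 2 and 7, 1.07% higher at day 7 and 0.0817% lower. On the inner root sheath list 6 of 10 genes tested were called higher and 0 lower, with a median of 2.93, beside a median of -0.02 over all genes. A gene well above background only at day 7 could enter the test, which favours higher values there. Without that filter the 6 sheath genes were still called.

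The remaining sheath genes called were 2 enzymes and a keratin. Padi3, which converts arginine to citrulline in the sheath protein trichohyalin, was at 7.41 and 7.10 at day 2, 7.29 and 6.84 at day 4, and 12.93 and 12.28 at day 7 (difference 5.35, SE 0.27, adjusted p = 7.03e-05). Padi1, a related enzyme, rose by 1.90 (SE 0.17, adjusted p = 0.00279). Krt26 was not well above background on any array of days 2 and 4 and was at least 15.6-fold higher at day 7 than at day 2 (adjusted p = 0.00286). For an "at least" fold, the dimmer day was set on each array to the lowest signal well above background, or to the gene's own where that was higher. The 4 genes not called were Tgm3, Gata3, Cux1 and Tchhl1.

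Hair shaft keratins were far above all earlier arrays at day 7, most of them with no step at day 4. Krt35, a keratin of the lower shaft, had one, at 8.70 and 7.87, then 9.56 and 9.79, then 14.68 and 14.48 (difference over the whole period 6.30, SE 0.27, adjusted p = 2.79e-05). Krt33a stood at 7.18 and 7.54 at day 2, 7.16 and 7.18 at day 4, and 14.05 and 13.03 at day 7 (6.18, SE 0.31, adjusted p = 7.83e-05). Krt34 was at 6.65 and 6.71, then 6.57 and 6.75, then 12.92 and 11.29 (5.43, SE 0.44, adjusted p = 0.00142). For Krt33a and Krt34 the arrays of days 2 and 4 overlapped, and both arrays of day 7 lay far above them. Krt86 was not well above background on either array of day 2 and was at least 27.2-fold higher at day 7 (adjusted p = 7.8e-06). In all, 6 of 7 hair shaft keratins tested were called higher and 0 lower, with a median of 4.76. Here too a gene well above background only at day 7 could enter the test, which favours this direction. Without the filter on background, Krt31 and Krt82 were not called against day 2. Krt84 was the one not called (0.03, SE 0.18, adjusted p = 0.961). The calls of Krt31 and Krt82 were lost without replicate 1 of day 2 (adjusted p = 0.0642 and 0.116) or replicate 2 of day 2 (adjusted p = 0.102 and 0.168).

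**Figure D2:**
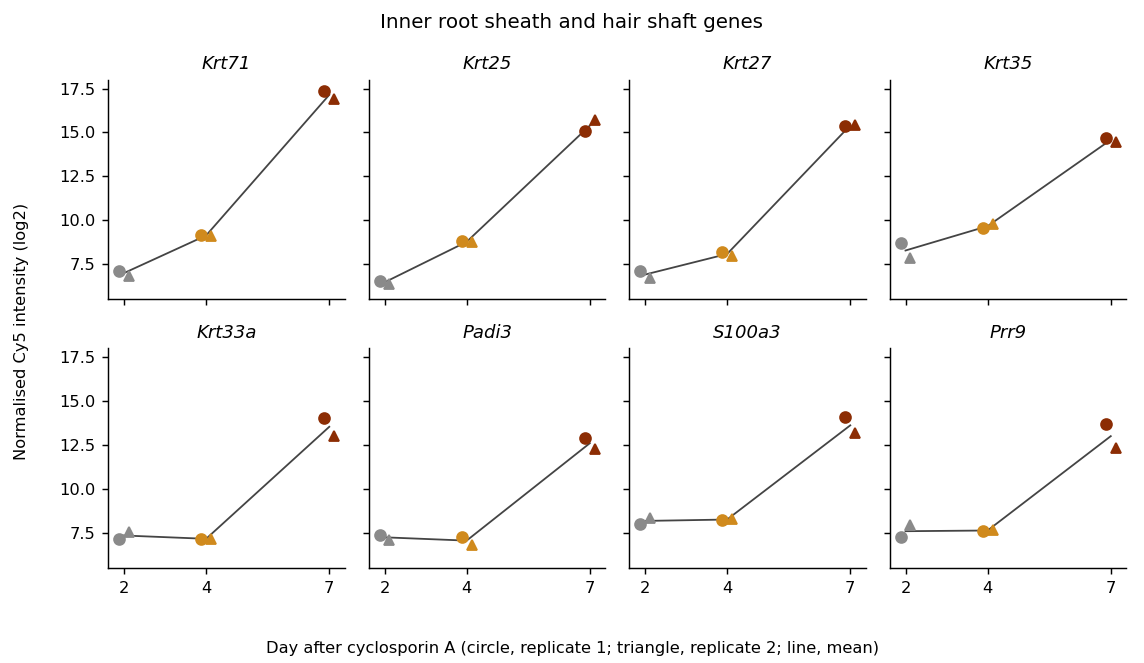
Normalised Cy5 intensity (y axis, log2) of 8 hair structure genes by day after cyclosporin A (x axis); circles are replicate 1, triangles replicate 2 and the line joins the day means. Krt71, Krt25, Krt27 and Krt35 lie higher on both arrays of day 4 than on both of day 2, while Krt33a, Padi3, S100a3 and Prr9 do so only at day 7.

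Keratin-associated proteins, the cross-linking proteins of the shaft, were higher at day 7 in nearly all members. Both arrays of day 7 lay above both of day 2 for 20 of the 22 tested, where 20% of all genes did so. Called were 9 higher and 0 lower, and the median was 2.40. A gene well above background only at day 7 could enter the test, which favours this order. How many of the 22 entered that way was not counted. Without the filter on background, Krtap6-1, Krtap4-13, Krtap4-7, Krtap9-1 and Krtap1-5 were not called against day 2. Krtap5-1 was at 8.38 and 8.19, then 8.14 and 8.46, then 12.88 and 12.35 (difference 4.33, SE 0.23, adjusted p = 9.3e-05). Krtap5-4 was at 8.75 and 8.51, then 8.49 and 8.69, then 13.65 and 11.90 (4.15, SE 0.47, adjusted p = 0.0109). Krtap4-16, not well above background at day 2, was at least 25.7-fold higher at day 7, with 12 and 10.11 there (adjusted p = 0.00787). In Krtap5-4 and Krtap4-16 replicate 1 of day 7 was well above replicate 2. Over the whole list the median deviation from each gene's mean was 2.50 on replicate 1 of day 7 and 0.85 on replicate 2. Against day 2, 1 of the 9 calls, that of Krtap5-1, was kept without any 1 of the 6 arrays, and 3 of the 9 were kept without replicate 1 of day 2. Without replicate 2 of day 2, Krtap5-4 had an adjusted p of 0.0773 and Krtap4-16 of 0.0524. Many have near-identical relatives, and whether a probe also caught their transcripts was not tested.

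An enzyme, a calcium-binding protein and a proline-rich protein completed the 10 largest rises. Fbp1, the gluconeogenic enzyme fructose-bisphosphatase, stood at 7.52 and 7.46, then 8.07 and 8.12, then 13.78 and 13.26 (difference from day 2 to day 7 of 6.03, SE 0.21, 65.3-fold, adjusted p = 7.8e-06). S100a3, a calcium-binding protein of the hair cuticle, was at 8.03 and 8.35, then 8.23 and 8.31, then 14.08 and 13.18 (5.44, SE 0.29, adjusted p = 9.34e-05). Prr9, a proline-rich protein, was at 7.28 and 7.93, then 7.60 and 7.69, then 13.71 and 12.32 (5.41, SE 0.42, adjusted p = 0.00117). All 3 had separate arrays at day 7, and S100a3 and Prr9 overlapped between days 2 and 4. Fbp1 was the only one of 25 glycolysis and gluconeogenesis genes called, and that list had a median of -0.10. Gjb2, a gap junction connexin, rose by 3.95 (SE 0.20, adjusted p = 7.03e-05), the only one of 8 connexins called, and a dimmer probe of it gave 1.33. Krt71, Krt25, Krt27, Krt35, Krt33a, Krt34, Padi3, Fbp1, S100a3, Prr9, Krt86 and Gjb2 were each still called whichever of the 6 arrays was left out. Fewer cells of a type and less RNA per cell cannot be told apart in whole skin, nor can more cells and more RNA per cell.

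The first interval, day 2 to day 4, compares arrays of 1 slide. No gene was called by limma (0 of 22036, 0%, smallest adjusted p = 0.112), and 344 had an unadjusted p under 0.05 where 1102 would by chance. The fit pools 1 spread over days whose replicate arrays differed with SDs of 0.337, 0.219 and 0.484. The wider spread of day 7 thus enters this comparison, and the absence of calls does not show that nothing changed. In comparisons with day 7 the pooled spread is smaller than that of day 7 itself. The smallest adjusted p was shared by the sheath keratins Krt71 (difference 2.14, SE 0.21, 4.4-fold) and Krt25 (2.30, SE 0.23, 4.94-fold), each adjusted p = 0.112, and their arrays did not overlap. Both were past the threshold when arrays were scaled to their 75th percentile, centred on spike-in controls or corrected with an offset of 16. Krt27 (1.17, SE 0.20) and Krt35 (1.39, SE 0.27) also had separate arrays, with an adjusted p of 1. The medians of the hair lists stayed near 0 here, at 0.17 for the inner root sheath, -0.02 for the shaft keratins and -0.01 for the keratin-associated proteins. Of the inner root sheath genes, 5 of 10 had both arrays of day 4 above both of day 2 and 0 had both below. Of the keratin-associated proteins, 2 of 22 had both arrays of day 4 above both of day 2 and 6 had both below, where 16.8% and 15.8% of all genes did so.

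In the second interval, day 4 to day 7, most hair genes made their change. Over all genes 0.463% were called, 0.458% higher and 0.00454% lower, which is 101 and 1 genes, and the latter has no symbol. Krt71 rose by 8.0 (SE 0.21, 256.1-fold, adjusted p = 4.09e-06), Krt27 by 7.32 (SE 0.20, adjusted p = 4.09e-06) and Krt33a by 6.37 (SE 0.31, adjusted p = 7.88e-05). Called higher were 6 of 7 shaft keratins (median 4.67), 6 of 10 inner root sheath genes (2.90) and 9 of 22 keratin-associated proteins (2.49), with 0 called lower on each list. This comparison and that of day 7 with day 2 share the arrays of day 7. Of the 9 keratin-associated proteins, Krtap5-1 alone kept its call without the filter on background, and the shaft keratins Krt31 and Krt82 lost theirs. Without 1 array at a time, 7 of these 9 calls of keratin-associated proteins, 5 of the 6 of shaft keratins and 6 of the 6 of sheath genes were kept throughout. Crym, a thyroid hormone binding protein, and Sct, the gut hormone secretin, were chosen after their values were seen. Crym went from 8.84 and 8.56 at day 4 to 13.37 and 12.32 at day 7 (4.15, SE 0.32, adjusted p = 0.00113), and Sct rose by 3.84 (SE 0.29, adjusted p = 0.00102).

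**Figure D3:**
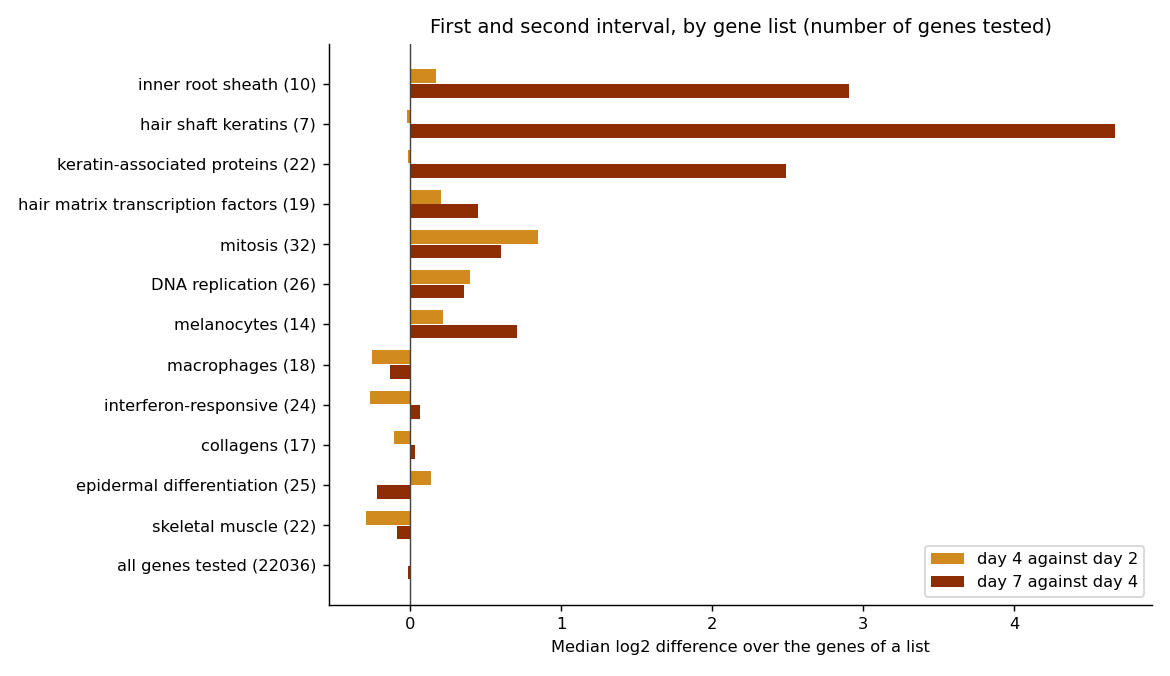
Median log2 difference (x axis) over the tested genes of each list and over all genes tested, for day 4 against day 2 and for day 7 against day 4 (bars). Mitosis (0.85 and 0.60) and DNA replication genes (0.40 and 0.36) have bars in both intervals, while shaft keratins and keratin-associated proteins have theirs almost wholly in the second.

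Day 4 was also compared with the mean of days 2 and 7. Day 4 is nearer to day 2 in time, so a gene that rises at an even rate lies below that mean too. The comparison called 16 genes (0.0726% of those tested), all lower at day 4, of which 11 have a symbol. They were Krt71 (-2.93, SE 0.18, adjusted p = 0.001), Krt27, Krt25, Krt33a, Krt86, Krt87, Padi3, S100a3, Krtap5-1, Fbp1 and Gjb2. The highest adjusted p of these was that of Gjb2 (-1.45, SE 0.17, adjusted p = 0.0409). Krt87 was the one of them whose arrays of day 4 lay below those of both other days, at 6.31 and 6.41, and it was not well above background there.

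Genes of cell division had higher values already at day 4, without a call. Of the 32 mitosis genes tested, 31 had both arrays of day 4 above both of day 2, where 16.8% of all genes did so, with a median difference of 0.85, though 0 were called. Over days 4 to 7 they had a median of 0.60 and 23 separate, where 21.8% of all genes had both arrays of day 7 above both of day 4, and again 0 were called. From day 2 to day 7, 13 of 32 were called higher and 0 lower, where 1.07% of all genes were called higher. The median was 1.39, and all 32 lay above 0. Ccna2, a cyclin of S and G2 phase, stood at 10.06 and 9.28, then 10.63 and 10.96, then 11.59 and 12.28 (difference 2.27, SE 0.32, 4.81-fold, adjusted p = 0.0211). Plk1, a kinase of mitotic entry, was at 9.40 and 8.74, then 10.06 and 10.12, then 10.72 and 11.15 (1.87, SE 0.25, adjusted p = 0.0197). For both, the arrays of each day lay above those of the day before. Nek2, a centrosome kinase, had the smallest p-value of the list (1.66, SE 0.21, adjusted p = 0.0154).

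Other called mitosis genes followed the same course. Ccnb2, a cyclin of mitosis, was at 11.60 and 10.80, then 12.26 and 12.30, then 12.97 and 13.41 (1.98, SE 0.28, adjusted p = 0.0213). Birc5, the survivin subunit of the chromosomal passenger complex, was at 11.74 and 10.92, then 12.47 and 12.56, then 13.01 and 13.54 (1.95, SE 0.29, adjusted p = 0.0252). Cdc20, an activator of the anaphase-promoting complex, was at 11.88 and 11.07, then 12.69 and 12.62, then 13.26 and 13.30 (1.81, SE 0.26, adjusted p = 0.0219). In each of these replicate 2 of day 2 was the lowest of the 6 arrays. Without that array, 0 of the 13 mitosis calls stood. Ccna2 then had an adjusted p of 0.126, Plk1 of 0.115, Birc5 of 0.134 and Nek2 of 0.111. Without replicate 1 of day 7, 7 of the 13 were kept, and Birc5 (adjusted p = 0.0519), Cdc20 (0.0703) and Ccnb2 (0.05) were among those lost. With any other array left out, 10 or 11 of the 13 were kept. Not called were Top2a, the topoisomerase that untangles chromosomes (1.61, SE 0.36, adjusted p = 0.0952), with a dimmer probe at 0.70, and Ccnb1 (1.58, SE 0.31, adjusted p = 0.0652).

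DNA replication genes had smaller differences. Of 26 tested, 21 had both arrays of day 4 above both of day 2 (median 0.40), beside 16.8% of all genes, and from day 2 to day 7 the median was 0.77, with 26 above 0, 3 called higher and 0 lower. Among those called were Tk1, the thymidine kinase (1.46, SE 0.20, adjusted p = 0.0201), and Mcm7, a subunit of the replicative helicase (1.26, SE 0.18, adjusted p = 0.0217). Without replicate 2 of day 2 these had adjusted p-values of 0.146 and 0.168, and without replicate 1 of day 2 of 0.0736 and 0.077, and 0 of the 3 calls were kept without either array. Tk1 was also not called without replicate 1 of day 7 (adjusted p = 0.0531). Mcm5, another helicase subunit, was at 10.31 and 11.77 on the arrays of day 7, so that its 2 arrays of day 7 lay on either side of both arrays of day 4 (10.76 and 11.03). The median deviation of the mitosis list was 0.29 on replicate 1 of day 7 and 0.95 on replicate 2, the opposite order to the keratin-associated proteins.

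**Figure D4:**
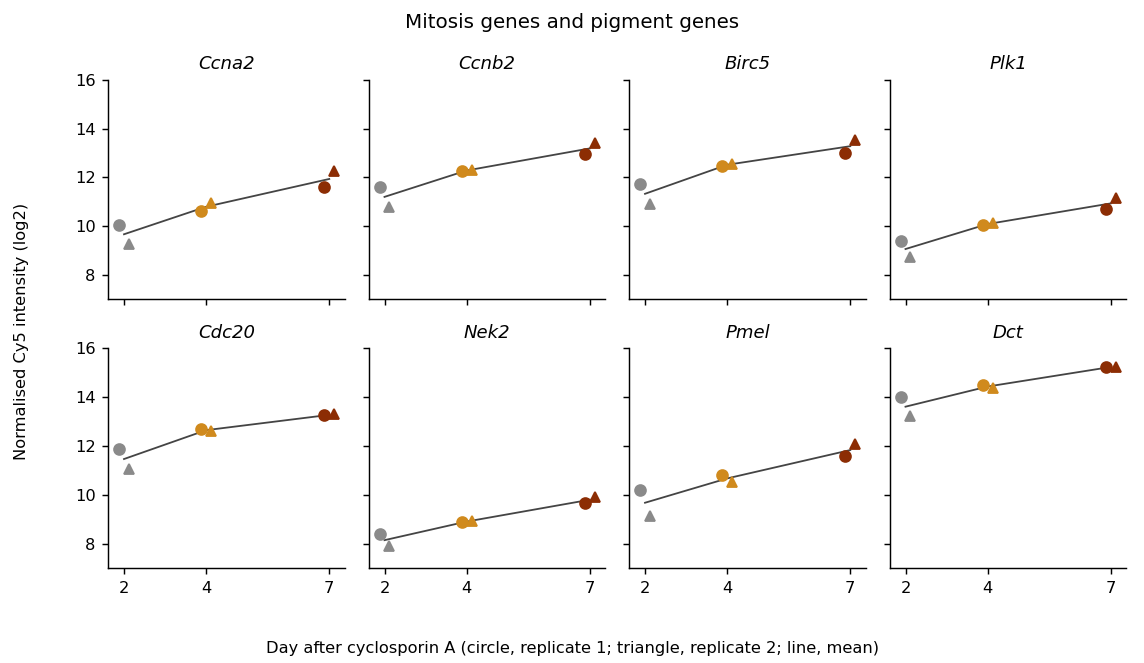
Normalised Cy5 intensity (y axis, log2) of 6 mitosis genes and of the pigment genes Pmel and Dct by day after cyclosporin A (x axis); circles are replicate 1, triangles replicate 2 and the line joins the day means. Replicate 2 of day 2 is the lowest point in each panel, and the means rise from day 2 to day 4 and from day 4 to day 7.

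Of 14 melanocyte genes tested, 4 were called higher at day 7 than at day 2, and 0 of these calls were kept without replicate 2 of day 2. Pmel, the matrix protein on which melanin is laid down, stood at 10.21 and 9.15, then 10.83 and 10.53, then 11.61 and 12.07 (difference 2.16, SE 0.34, adjusted p = 0.0291). Dct, an enzyme of melanin synthesis, was at 14.01 and 13.22, then 14.50 and 14.38, then 15.24 and 15.24 (1.63, SE 0.25, adjusted p = 0.0278). Both had separate arrays on each day. Slc45a2, a melanosome transporter (2.05, SE 0.27, adjusted p = 0.0178), and Oca2, a melanosome anion channel (1.31, SE 0.16, adjusted p = 0.0149), were the others called, with 0 lower and a list median of 0.56. Among all genes tested 1.07% were called higher. Oca2 was also called against day 4 (1.33, SE 0.16, adjusted p = 0.0179), though not without replicate 1 or 2 of day 4 (adjusted p = 0.21 and 0.185), and was well above background on 1 of 2 arrays of day 2. Tyrp1 was not called (1.45, SE 0.29, adjusted p = 0.0677), and Tyr was too dim to test. Without replicate 2 of day 2 the adjusted p was 0.126 for Pmel, 0.135 for Dct, 0.131 for Slc45a2 and 0.102 for Oca2. The calls were also lost without replicate 1 of day 7 for Pmel and Dct (adjusted p = 0.0705 and 0.0826), without replicate 2 of day 7 for Pmel (adjusted p = 0.0554) and without replicate 1 of day 2 for Oca2 (adjusted p = 0.077).

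Of 19 transcription factors of the hair matrix tested, 4 were called higher from day 2 to day 7 and 0 lower, with a median of 0.65. Over all genes 1.07% were called higher. On this list 18 of 19 lay above 0, 13 had both arrays of day 7 above both of day 2, and 1 had both below. These orders were found in 20% and 19.4% of all genes. Msx2, a homeobox factor of the matrix, was at 7.51 and 7.41, then 8.13 and 8.09, then 10.08 and 10.31 (2.74, SE 0.17, 6.67-fold, adjusted p = 0.000306). Dlx3, a homeobox factor needed for shaft formation, was at 6.77 and 6.83, then 7.31 and 7.18, then 8.86 and 9.09 (2.18, SE 0.17, adjusted p = 0.00137). Both had separate arrays on all days and kept this call without any 1 array. Msx1 (1.42, SE 0.20, adjusted p = 0.0213) and Foxe1 (2.01, SE 0.31, adjusted p = 0.0264) showed no step at day 4 (-0.03 and 0.02) and lost the call without replicate 2 of day 2 (adjusted p = 0.163 and 0.158) or replicate 1 of day 2 (adjusted p = 0.0703 and 0.106). Hoxc13, which drives hair keratin genes, had a difference of 0.91 (SE 0.19, adjusted p = 0.0837), and Foxn1, mutated in the nude mouse, one of 0.48 (SE 0.27, adjusted p = 0.453). Lef1, a Wnt effector of the matrix, was at 8.34 and 7.69, then 8.72 and 8.64, then 8.84 and 9.83, and was not called (1.31, SE 0.34, adjusted p = 0.136).

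Signalling genes of the growing follicle gave few calls. Shh, the hedgehog ligand of the matrix, was at 6.62 and 6.34, then 7.07 and 7.29, then 8.20 and 8.90 (2.07, SE 0.25, adjusted p = 0.0139), and at day 2 only 1 of 2 arrays was well above background. Mycn, a transcription factor of proliferating cells that hedgehog signalling induces, was at 8.78 and 8.18, then 9.62 and 9.81, then 10.74 and 11.16 (2.47, SE 0.25, adjusted p = 0.00527), and a dimmer probe gave 1.02. These were the 2 of 13 hedgehog genes called higher, with 0 lower and a median of 0.28, where 1.07% of all genes were called higher. The receptor Ptch1 (0.28, SE 0.23, adjusted p = 0.637) and the effector Gli1 (0.63, SE 0.22, adjusted p = 0.253) were not called. The call of Shh was lost without replicate 2 of day 2 (adjusted p = 0.106), and that of Mycn was kept without any 1 array.

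Among the Wnt ligands and receptors 2 of 24 were called higher and 0 lower, with a median of 0.15. Over all genes 1.07% were called higher and 0.0817% lower, with a median of -0.02. Lgr5, a receptor for R-spondins that marks follicle stem cells, was at 9.12 and 9.50, then 9.83 and 10.14, then 10.79 and 10.55 (1.36, SE 0.21, adjusted p = 0.0266), and Wnt5b rose by 0.93 (SE 0.16, adjusted p = 0.0414), with a dimmer probe at 0.48. Wnt10b, a ligand of early anagen, had both arrays of day 7 above all others but was not called (0.99, SE 0.21, adjusted p = 0.0846). Axin2, a target of Wnt signalling, had a difference of -0.49 (SE 0.20, adjusted p = 0.302). Bambi, a decoy receptor of the BMP pathway and a Wnt response gene, was at 9.17 and 9.43, then 9.22 and 9.07, then 11.10 and 11.05 (1.77, SE 0.18, adjusted p = 0.00527), the one call among 20 BMP pathway genes and among 15 Wnt response genes. It kept its call without any 1 array. The BMP list had a median of 0.20, with Bmp4 at 0.23 (SE 0.17, adjusted p = 0.578) and Bmp2 at -0.21 (SE 0.20, adjusted p = 0.682). Lgr5 lost its call without replicate 1 or 2 of day 2 (adjusted p = 0.138 and 0.106) or replicate 1 of day 7 (adjusted p = 0.0729). Wnt5b lost it without any 1 array of days 2 and 4, though its difference stayed between 0.90 and 0.95.

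Other follicle lists had a single call, a pair or none from day 2 to day 7, where 1.07% of all genes were called higher. None was called among 9 outer root sheath and companion layer genes (median 0.15) or 12 secreted Wnt antagonists (0.26). The 28 genes of the FGF and TGF-beta family (-0.01) gave no call either. Hes5 (1.64, SE 0.22, adjusted p = 0.0167) and Heyl (1.34, SE 0.19, adjusted p = 0.0219), both Notch targets, were the 2 of 15 ectodysplasin and Notch genes called, and a dimmer probe of Heyl gave 0.95. Corin, a protease of the dermal papilla at the follicle base, was the 1 of 17 dermal papilla genes (6.96 and 6.88, then 7.19 and 7.01, then 8.25 and 8.04; difference 1.23, SE 0.18, adjusted p = 0.0219). The papilla gene Alpl was not called (-0.21, SE 0.31, adjusted p = 0.82). Cdh3, the cadherin of the hair germ, rose by 1.39 (SE 0.18, adjusted p = 0.0158), and with Lgr5 it made up the 2 of 19 bulge and hair germ genes. Each of Hes5, Heyl, Corin and Cdh3 lost the call without replicate 2 of day 2, with adjusted p-values of 0.132, 0.168, 0.165 and 0.129, and without replicate 1 of day 2, with 0.0699, 0.0821, 0.0921 and 0.0769. Col11a1, a minor fibril collagen, was the only one of 17 collagens called, at 8.30 and 7.97, then 8.78 and 8.49, then 11.25 and 11.88 (3.43, SE 0.25, adjusted p = 0.000803). It kept its call without any 1 array, while the collagen list had a median of -0.01 and Col1a1 a difference of -0.22 (SE 0.25, adjusted p = 0.748), with dimmer probes at 0.225 and -0.08.

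The targets of the drug and the immune cells gave no call in any of the 3 comparisons between days. Of 12 cyclophilins and 15 calcineurin and NFAT genes, 0 were called, with medians from day 2 to day 7 of 0.16 and -0.03. Ppia, the main cyclophilin that binds the drug, had a difference of 0.32 (SE 0.24, adjusted p = 0.594), and Rcan1, a gene induced by NFAT, lay between 10.71 and 11.05 on all 6 arrays (0.04, SE 0.18, adjusted p = 0.956). Nfatc1, an NFAT factor of bulge stem cells, stood at 10.26 and 10.83, then 10.56 and 10.48, then 9.56 and 9.72. Its arrays of day 7 were the lowest, without a call (-0.91, SE 0.22, adjusted p = 0.115), and another probe gave -0.02. On the lists of 17 T cell, 18 macrophage, 16 MHC class II and Langerhans cell and 8 neutrophil genes 0 were called. Their medians from day 2 to day 7 were -0.20, -0.38, -0.05 and -0.09. Of the macrophage genes 1 lay above 0, where 47.4% of all genes did so. Against day 4, both arrays of day 7 were lower for 8 T cell and 8 MHC class II and Langerhans cell genes, beside 20.7% of all genes. Both were higher for 2 and 1, beside 21.8%. Cd74, a chaperone of MHC class II molecules, had its lowest values at day 7, at 14 and 14.31 against 15.04 and 15.24 at day 4 (-0.98, SE 0.19, adjusted p = 0.106).

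Replicates differed in several cell type lists beside these comparisons. The 18 macrophage genes had a median deviation of 0.61 on replicate 1 of day 2 and -0.23 on replicate 2, and the 24 interferon-responsive genes 0.59 and -0.34. The summed intensity of the macrophage list was 219800 to 367100 at day 2, 229300 to 277600 at day 4 and 249000 to 256800 at day 7. Skeletal muscle genes lay below 0 from day 2 to day 7 in 22 of 22, with a median of -0.36 and 0 called. Their summed intensity was 1273000 to 1610000 at day 2, 1174000 to 1257000 at day 4 and 954000 to 1265000 at day 7. Of the muscle genes, 8 of 22 had both arrays of day 7 below both of day 2, where 19.4% of all genes did so. Ttn, the giant sarcomere protein, was the lowest of them (-1.13, SE 0.37, adjusted p = 0.218), and its 7 other probes gave -1.21 to 0.08. Epidermal differentiation genes had a median deviation of 0.25 on replicate 1 of day 7 and -0.49 on replicate 2, with 0 of 25 called and Krt10 at 0.06 (SE 0.28, adjusted p = 0.955; a dimmer probe gave -0.33). The part of these differences in the hair and mitosis results was not tested.

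**Figure D5:**
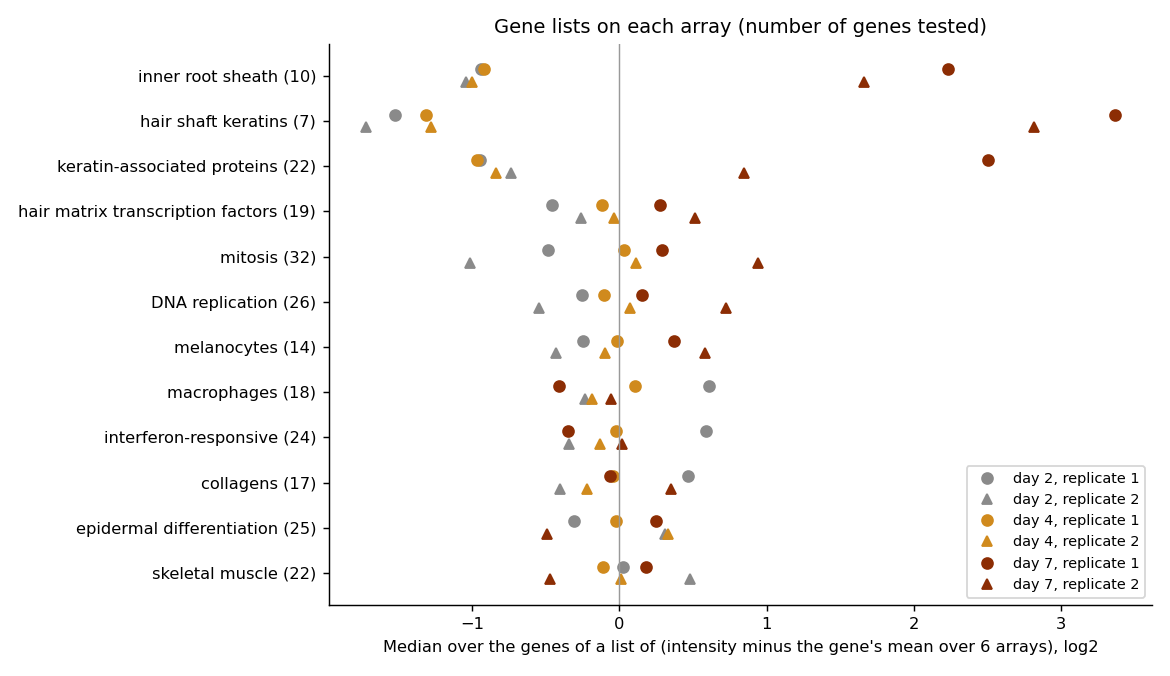
Median, over the tested genes of each list, of the deviation from the gene's mean over 6 arrays (x axis, log2), for each array (points coloured by day; circles replicate 1, triangles replicate 2). The hair lists separate day 7 from all other arrays, the mitosis list separates all 3 days, and the macrophage and interferon lists are highest on replicate 1 of day 2.

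From day 2 to day 7, 18 genes were called lower, 12 of them with a symbol, but 628 were with the processed signal. More were called lower without replicate 2 of day 7, but that fit takes no spread from day 7. Pon1, the esterase paraoxonase of serum lipoproteins, was at 10.87 and 9.93, then 9.97 and 9.47, then 8.48 and 8.39, a difference of -1.97 (SE 0.31, 3.92-fold lower, adjusted p = 0.0294). Aldh1a1, an enzyme of retinoic acid synthesis, was at 12.39 and 12.19, then 11.79 and 11.61, then 10.93 and 11.35 (-1.15, SE 0.20, adjusted p = 0.0433). Both had their lowest arrays at day 7. Tnfrsf11a, the receptor RANK, differed by -1.03 (SE 0.17, adjusted p = 0.0383), with a dimmer probe at -0.25, and Otog by -1.23 (adjusted p = 0.0263). Of the 10 largest falls 4 were olfactory receptor genes, for example Olfr930 at 8.23 and 8.38, then 8.21 and 8.15, then 6.95 and 7.25 (-1.20, adjusted p = 0.0251). The share of this large family among all genes tested was not counted, so the 4 are not read as a result about it. The slide of day 7 was the dimmer one: 803 genes were well above background on both arrays of day 2 and neither of day 7, and 116 the other way round. Pon1 lost its call without replicate 1 of day 2 (adjusted p = 0.0848) or replicate 1 or 2 of day 7 (adjusted p = 0.0905 and 0.0523). Aldh1a1 lost it without any array but replicate 2 of day 7 (adjusted p = 0.0699 to 0.196). Tnfrsf11a, Otog and Olfr930 lost theirs without any 1 array of days 2 and 4, with 0.245, 0.183 and 0.197 as the highest adjusted p-values, and Tnfrsf11a also without replicate 1 of day 7 (adjusted p = 0.0562). Under spike-in centring, where the median of all genes moved to 0.36 and 1 variance was shared by all genes, Aldh1a1, Tnfrsf11a, Otog and Olfr930 were not called.

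The number of calls changed when single arrays were left out, through the differences, the spread or both. With 1 array of day 7 left out, the spread came from days 2 and 4 alone. The prior SD of limma was then 0.138 in place of 0.201. Counts from such a fit are therefore not comparable with those of all arrays. Without replicate 2 of day 7 the comparison with day 2 called 1585 genes (583 higher and 1002 lower) and that with day 4 called 727 (268 and 459). Without replicate 2 of day 2 the former called 45, 41 of them among the 254 called with all arrays, and without replicate 1 of day 2 it called 103. Without replicate 1 or 2 of day 4 the comparison of day 7 with day 4 called 49 and 46. With the scanner software's processed signal 534 genes were higher and 628 lower at day 7 than at day 2, and 407 and 515 against day 4, in place of 236 and 18, and 101 and 1.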

How the data were processed

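The authors' deposited scanner files hold, per the file headers, the median Cy5 intensity of each spot, its local background and a processed Cy5 intensity, and the submitters' processing notes name Agilent Feature Extraction 9.1. Per the labels, total RNA was extracted with Isogen and made into labelled cRNA. Each array had 45018 spots, of which 1639 controls and 12 to 67 outlier spots were left out, and 0 were saturated. Intensities were corrected with normexp (offset 50), put on the log2 scale, averaged over the spots of a probe and quantile-normalised between arrays with limma 3.58.1 in R 4.3.3 (with the package data.table, version 1.17.8).

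Of 41174 probes, 27930 passed a filter, well above background on the 2 arrays of some day. Probes were named by accession (22951), synonym (57) or symbol (10) from a RefSeq table of GRCm38.p6, and 18156 had none. The brightest probe stood for a gene, giving 22036 genes (13470 with a symbol; 104 missing a value on some array). One mean per day was fitted (residual degrees of freedom 3, prior degrees of freedom 4.96 and prior SD 0.201), and the code was tested on simulated data. Promoter windows were matched by symbol for 10713 genes.

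The members and 49 gene lists (941 genes, 57 on more than 1 list) were chosen with earlier results of these data known. Genes named are the 10 highest and 10 lowest called with a symbol per comparison (no overlap between days, well above background on the brighter day), the 4 smallest p-values of each list and a set of skin and hair genes. Other genes were named after their values were seen. One called gene is not reported here. Alternatives covered scaling, background correction, signal, filter, probe choice, replicate block and each array left out.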

Additional observations from a re-analysis of the deposited data

How the results depend on the processing

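The counts of genes called are given for day 7 against day 4, day 7 against day 2 and day 4 against the mean of days 2 and 7 in turn; they were 102, 254 and 16. They were 154, 310 and 37 with 75th percentile scaling, 86, 165 and 17 with cyclic loess, 561, 1154 and 97 with spike-in centring, 152, 354 and 25 with an offset of 16, 922, 1162 and 4 with the processed signal, and 46, 136 and 8 without a filter. The median of all genes moved to 0.28 (day 7 against day 4) and 0.36 (day 7 against day 2) with spike-in centring, and limma's prior degrees of freedom there were infinite, against 4.96, so that every gene was tested with 1 common SD of 0.305. Its larger counts rest on that too. Day 4 against day 2 called 0 genes, but 2 with 75th percentile scaling, 2 with an offset of 16 and 22 with spike-in centring. Leaving out 1 array gave 46 to 727, 45 to 1585 and 11 to 69 genes, and 0 to 1 for day 4 against day 2. The highest of these counts came without replicate 2 of day 7, a fit that takes no spread from day 7. A fit on the arrays of the days compared alone was not run for the contrast that needs all 3 days. No named result changed direction while called.

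Whether the replicate numbers pair samples of different days was not given in the labels used here. Deviations of same-numbered arrays correlated at 0.351 for days 2 and 4, -0.224 for days 2 and 7 and -0.240 for days 4 and 7. With 2 arrays per day these correlations cannot settle it. With the replicate number as a block, 41, 59 and 10 genes were called, and 0 for day 4 against day 2; 0 of the 13 mitosis calls and 6 of the 6 inner root sheath calls against day 2 were kept. With 2 arrays per day, and a dimmer slide at day 7, small changes of dim genes cannot be seen.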
